A study of Drosophila melanogaster with 2 samples.

Results

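The Dpr, DIP, Beat and Side genes of Drosophila melanogaster encode surface and secreted proteins by which neurons recognise partner cells, and the regions around them were searched here for peaks of the transcription factor Single-minded (Sim). The genes were taken by symbol from the protein-coding genes of the fly genome (dm6): dpr followed by a number, and names that start with DIP-, beat- or side. This gave 54 of 13986 protein-coding genes, of which 21 were Dpr, 11 DIP, 14 Beat and 8 Side genes. The peaks come from chromatin immunoprecipitation followed by sequencing (ChIP-seq) on whole embryos aged 0 to 24 h of the strain sim-GFP, which expresses Sim fused to eGFP. The fusion was precipitated through its fluorescent tag with an anti-GFP antibody, while sim stands as the antibody in another field of the labels. There is 1 group, with biological replicates 1 and 2 of the same strain (2 samples). It has no second genotype, stage or treatment, and a control experiment named in the labels was not analysed here. Whole embryos mix Sim-positive cells with all others, so a site bound in few cells and a site bound weakly cannot be told apart.

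Sim is a transcription factor of the bHLH-PAS family and the master gene for midline cells in the embryo's nerve cord. It binds DNA with its partner Tango, and the core of the sequence they recognise is ACGTG. Dpr proteins carry a pair of immunoglobulin domains and bind DIP proteins (Dpr-interacting proteins) on facing cells, each Dpr with its own small set of DIPs. Neurons that express a Dpr often connect to neurons or muscles that express its DIP. Beat proteins, named after beaten path (beat-Ia), are immunoglobulin proteins of motor axons and other neurons, and several bind Side proteins. Sidestep (side) is expressed along the route and on the muscles that motor axons grow towards, and beat-Ia is its receptor.

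The authors' pooled optimal list, made from both replicates after a threshold on how repeatably a peak ranks across separate calls (the irreproducible discovery rate, IDR), held 2682 peaks. The lists thresholded in the same way for each replicate alone held 1071 peaks in replicate 1 and 1676 in replicate 2. Lists of peaks hold no read counts, so the depth of the libraries is unknown. A gene was said to carry a peak when the summit of an optimal peak lay in the gene or within 5 kb on either side. The strength of a peak is given as the authors' signal value, whose scale is not given in the sources used here, and it is used only to rank peaks within a list or to describe them.

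Fewer of the recognition genes carried a Sim peak than genes of their length would give. An optimal peak lay at 11 of the 54 genes, which is 20.4% (exact 95% binomial interval 10.6% to 33.5%), against 30.0% of all protein-coding genes. The recognition genes are long, with a median of 36.2 kb, and long genes carry peaks more often. When each of the 54 was given the share of carriers among genes of its own length bin, the sum was 25.8 genes, or 47.8%. A peak that overlapped a thresholded peak of both replicates lay at 3 of the 54 genes, or 5.56% (1.16% to 15.4%), against 12.4% of all protein-coding genes, and genes of like length would give 12.1. The 3 genes were DIP-iota, beat-Ib and DIP-alpha. In both measures the recognition genes were below the number from genes of like length, and no test was made of that difference. The shares of all protein-coding genes, 30.0% and 12.4%, lie inside the intervals of the recognition genes. Those from genes of like length, 47.8% and 22.4%, lie above them, so the low count rests on the comparison by length. Intervals here cover counting error only, and treat neighbouring genes as independent.

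The peak with support in both replicates at each of these 3 genes had a higher signal value than the other 13 of the 16 optimal peaks at the recognition genes. The bases below reach 50 bp to each side of the summit and are shown because these are the peaks that rest on both replicates. All are read from the forward strand of the RefSeq copy of the dm6 assembly. Capitals mark a match, on either strand, to any of the motifs searched for, which were ACGTG, the E-box forms CACGTG and CAGGTG and the form CATATG, the homeodomain core TAATTA, and GAGAG. The first window is chr2L:6612657-6612757 near DIP-iota, the second chr2L:15911224-15911324 in an intron of beat-Ib, and the third chrX:3546244-3546344 in an intron of DIP-alpha.
DIP-iota: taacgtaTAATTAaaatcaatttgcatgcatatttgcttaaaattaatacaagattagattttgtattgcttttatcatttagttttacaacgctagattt
beat-Ib: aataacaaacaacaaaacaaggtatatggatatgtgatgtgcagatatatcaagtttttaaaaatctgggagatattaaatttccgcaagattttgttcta
DIP-alpha: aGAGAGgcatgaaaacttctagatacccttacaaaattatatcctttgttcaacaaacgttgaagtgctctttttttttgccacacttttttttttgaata
The windows are rich in A and T, with a GC content of 21.8% at DIP-iota, 27.7% at beat-Ib and 30.7% at DIP-alpha. The DIP-iota window holds TAATTA, the core motif of many homeodomain proteins, and the DIP-alpha window holds GAGAG, the motif of the GAGA factor. None of the 3 holds ACGTG.

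DIP-iota, a receptor of the Dpr-binding family, had by far the strongest peak of the group. Its signal value was 592 in the pooled list, where it ranked 8 of 2682. In the ranked list of all called peaks of each replicate it had 289 in replicate 1, rank 5, and 299 in replicate 2, rank 19. Each list thus placed the peak among its strongest. The summit lay outside DIP-iota, 4427 bp beyond its 3′ end, in an intron of the neighbouring gene CG11050 and 1020 bp from the start site of CG11050. The peak is therefore near DIP-iota by distance alone, and the nearest start site belongs to another gene.

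DIP-alpha, a receptor for dpr6 and dpr10 on motor neurons and on medulla neurons of the visual system, had a peak inside the gene. Its signal value was 114 in the pooled list, rank 616, with 55.1 in replicate 1 and 55.4 in replicate 2. The summit lay in an intron, 15629 bp upstream of the nearer of its start sites, and the nearest start site of any gene was that of ppk8, 11518 bp away. No window of another protein-coding gene covered it. It ranked 539 in the ranked list of replicate 1 and 866 in that of replicate 2, and DIP-alpha was the one DIP gene with a summit inside it.

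The other 9 DIP genes carried no optimal peak, so 2 of 11 did (18.2%, interval 2.28% to 51.8%), against 5.38 from genes of like length. Both peaks of the family overlapped peaks of both replicates, against 2.55 genes of like length. DIP-lambda, the longest recognition gene with 379.1 kb, had none, and neither did DIP-kappa, DIP-epsilon, DIP-theta or DIP-beta, each of 32.3 to 40.5 kb, or DIP-eta, DIP-delta or DIP-zeta, each of 16.2 to 19.5 kb. DIP-gamma, of 45.4 kb, came nearest, with a summit 13048 bp from the gene. Over the summed length of the DIP genes, 0.689 Mb, there was 1 peak. DIP-lambda alone makes up 379.1 kb of that length. It lies at the start of chromosome arm 2R, in a stretch where no gene carried an optimal peak.

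Dpr genes carried peaks at 3 of 21 genes (14.3%, interval 3.05% to 36.3%), against 9.53 from genes of like length. The carriers were dpr14, dpr19 and dpr20, the 3 shortest of the family with 3.7 to 4.6 kb. All 5 of their peaks lay outside the gene. None was overlapped in both replicate lists, which allows a share of Dpr genes of up to 16.1%. Genes of like length would give 20.9%, or 4.39 genes. No optimal summit lay inside any Dpr gene over 0.890 Mb of gene bodies, which allows up to 4.14 peaks per Mb.

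At dpr19 the stronger peak had a signal value of 101.1 in the pooled list, with 24.2 in replicate 1 and 75.8 in replicate 2. Its summit lay 2144 bp beyond the 3′ end of dpr19, in the 3′ UTR of gny and 214 bp from the start site of CG5096. The weaker had 71.7 in the pooled list, with 35.3 in replicate 1 and 45.2 in replicate 2. It lay 130 bp upstream of the start site of dpr19 itself, and it was in neither replicate's thresholded list.

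At dpr14 the stronger peak had 91.3 in the pooled list, with 32.04 in replicate 1 and 61.9 in replicate 2. It lay between genes, 469 bp upstream of dpr14 and 176 bp from the start site of spidey. The weaker had 59.9, with 24.1 in replicate 1 and 41.4 in replicate 2, and lay in the 5′ UTR of RpS6, a ribosomal protein gene, 68 bp from its start site. So 3 of the 5 Dpr peaks had the start site of another gene nearer than that of the Dpr gene. The peak at dpr20 had 52.7 in the pooled list, with 16.7 in replicate 1 and 46.4 in replicate 2, and lay 574 bp upstream of dpr20, in no window of another protein-coding gene.

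The 18 Dpr genes without a peak included the longest of the family. These were dpr6 with 164.7 kb, dpr8 with 140.1 kb and dpr21 with 124.5 kb. The nearest summit to dpr6 was 118059 bp away and that to dpr8 84003 bp away. The closest misses were dpr17, with a summit 9919 bp away, and dpr9, with one at 10577 bp. The other Dpr genes without a peak were dpr1, dpr2, dpr3, dpr4, dpr5, dpr10, dpr11, dpr12, dpr13, dpr15, dpr16 and dpr18, and the nearest summits to them lay 17494 to 255960 bp away. The only Dpr gene on chromosome 4, dpr7, had its nearest summit 171504 bp away.

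Beat genes carried peaks at 3 of 14 genes (21.4%, interval 4.66% to 50.8%), against 6.96 from genes of like length. All 5 Beat peaks lay in introns of the Beat gene, whereas the Dpr peaks lay outside theirs. The Beat carriers are 36.7 to 73.1 kb long and the Dpr carriers 3.7 to 4.6 kb, so more of each Beat window lies inside the gene. At beat-Ib, a close relative of beat-Ia that also binds side, 3 peaks lay close together in an intron, 50136 to 51161 bp from the start site in a gene of 57.3 kb. The strongest had a signal value of 180 in the pooled list, rank 236, with 72.8 in replicate 1 and 104 in replicate 2 and support in both thresholded lists. The next had 102, with 24.0 in replicate 1 and 79.2 in replicate 2, and was in the thresholded list of replicate 2 alone. The last overlapped it and shared its replicate peaks, with a pooled signal of 7.60. The nearest start site to all 3 was that of CG13244, 4589 to 5614 bp away.

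The remaining Beat peaks were weaker. At beat-IIIc, the longest Beat gene, the peak had 73.8 in the pooled list, with 36.0 in replicate 1 and 38.7 in replicate 2, and its nearest start site was that of beat-IIIc, 17188 bp away. At beat-VII the peak had 55.4 in the pooled list and 35.5 in replicate 1, with no overlapping peak in the ranked list of replicate 2. Its summit lay 1692 bp from the start site of Tb, a cuticle protein gene. Neither peak was in both thresholded lists, so beat-Ib was the 1 Beat gene with support in both replicates, against 3.31 from genes of like length. The 11 Beat genes without a peak included beat-Ia itself, whose nearest summit was 137666 bp away, and beat-IIIb, at 249562 bp. The others were beat-Ic, beat-IIa, beat-IIb, beat-IIIa, beat-IV, beat-Va, beat-Vb, beat-Vc and beat-VI, with nearest summits 20527 to 133467 bp away.

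Side genes carried peaks at 3 of 8 genes (37.5%, interval 8.52% to 75.5%), close to the 3.92 from genes of like length. All 4 Side peaks lay inside the gene, and 2 lay at its own start site. The peak at side had a summit 10 bp from the start site, in the 5′ UTR, with 68.0 in the pooled list, 19.9 in replicate 1 and 45.8 in replicate 2. The stronger peak at side-V lay 58 bp from the start site, in the 5′ UTR, with 62.7 in the pooled list, 25.2 in replicate 1 and 36.5 in replicate 2. The other 2 were intronic. At side-IV the peak had 55.2, with 28.3 in replicate 1 and 26.0 in replicate 2, 2429 bp from the start site of side-IV. The second at side-V had 45.0, with 34.02 in replicate 2 and no overlapping ranked peak in replicate 1. The 5 Side genes without a peak, side-II, side-III, side-VI, side-VII and side-VIII, had their nearest summits 23377 to 82975 bp away. No Side peak was overlapped in both replicate lists, which allows a share of genes of up to 36.9%. Genes of like length would give 23.4%, or 1.87 genes, which lies inside that limit.

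**Figure D1:**
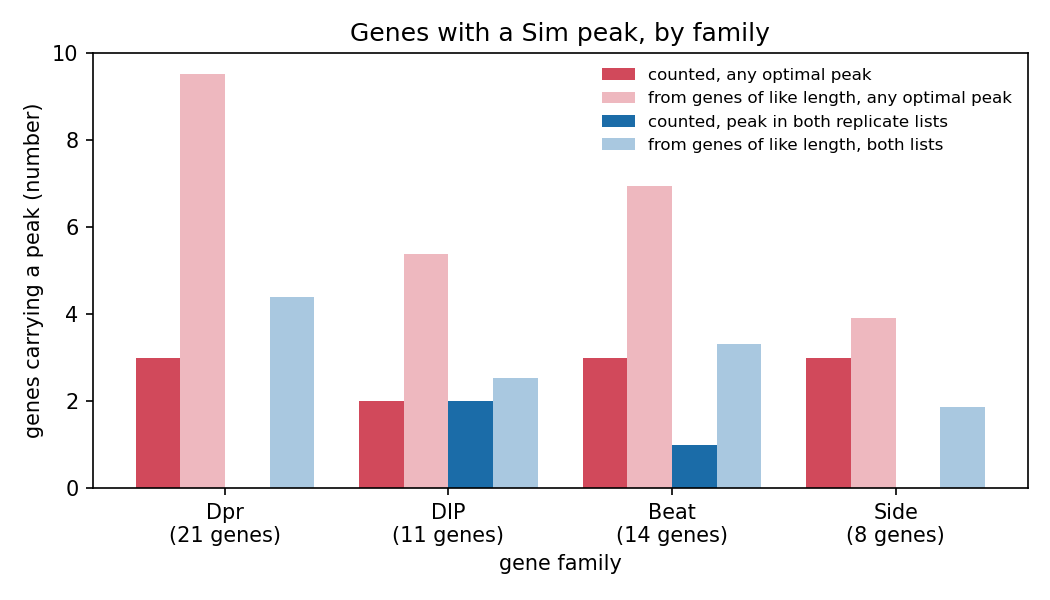
Number of genes carrying a peak in each family (bars from 0), as counted and as the sum of the shares of genes of like length, for any optimal peak (red) and for peaks overlapped in both replicate lists (blue). For any peak the counts were 3 against 9.53 (Dpr), 2 against 5.38 (DIP), 3 against 6.96 (Beat) and 3 against 3.92 (Side). The share from genes of like length lies above the interval of the Dpr genes (45.4% against up to 36.3%). It lies inside the intervals of the DIP, Beat and Side genes (49.0%, 49.7% and 49.0%). For peaks in both lists the counts were 0 against 4.39, 2 against 2.55, 1 against 3.31 and 0 against 1.87.

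**Figure D2:**
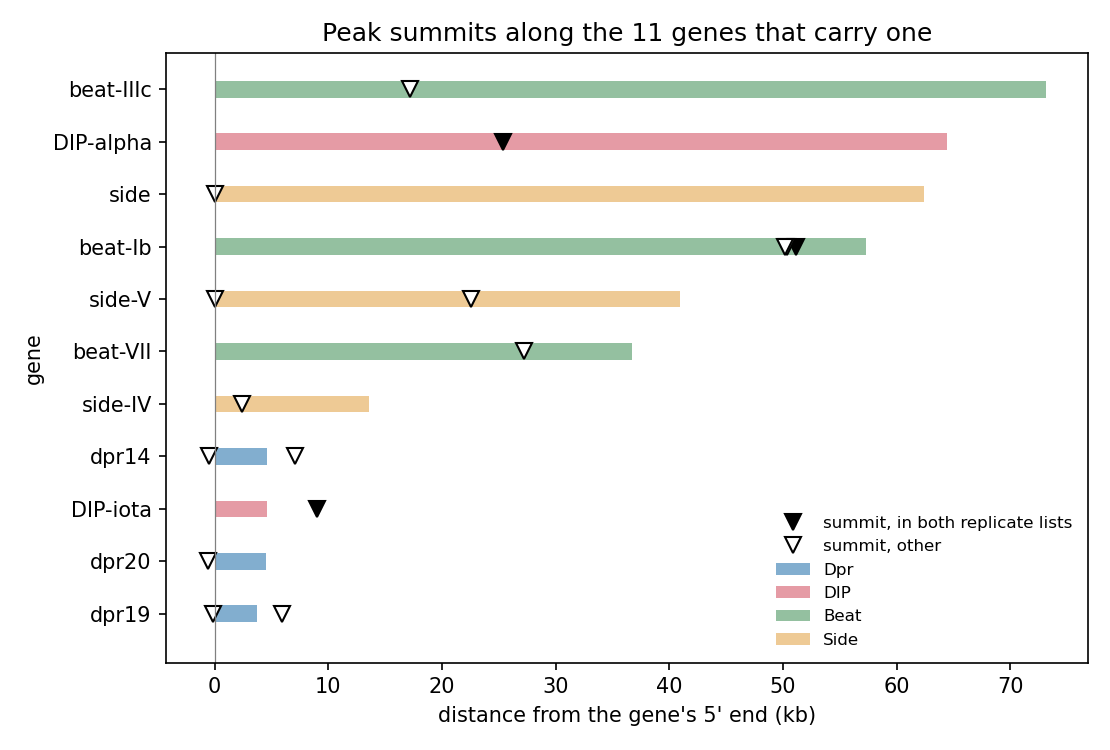
Summits of the 16 peaks (triangles) along the 11 genes that carry one, as distance in kb from the 5′ end of the gene, with each bar as long as its gene and filled triangles for peaks overlapped in both replicate lists. All 5 Dpr summits and that of DIP-iota fall outside the bar, and the Beat and Side summits fall inside.

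**Figure D3:**
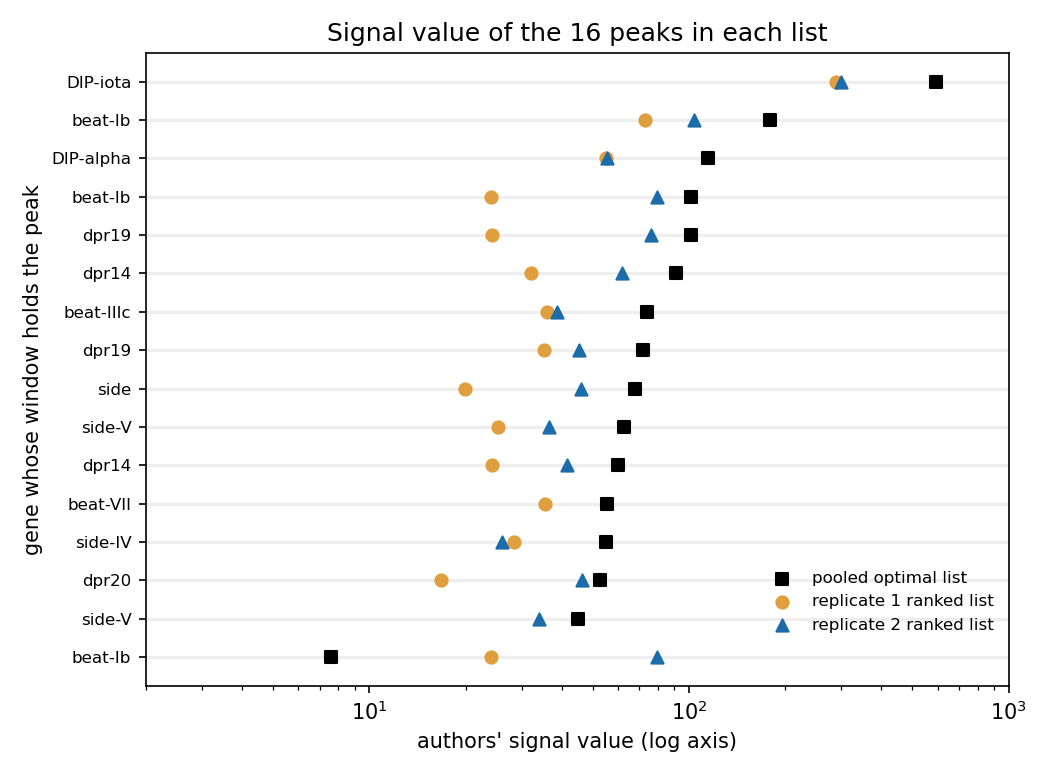
The authors' signal value (log axis) of each of the 16 peaks in the pooled optimal list (squares) and of the overlapping peak in the ranked list of replicate 1 (circles) and replicate 2 (triangles). DIP-iota, beat-Ib and DIP-alpha stand highest in replicate 1, with 289, 72.8 and 55.1, and are the 3 in its thresholded list. In replicate 2 DIP-alpha, with 55.4, stands below the other beat-Ib peaks (79.2), dpr19 (75.8) and dpr14 (61.9). A missing symbol means that no ranked peak overlapped.

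The low count lay in the long genes. Of the 44 recognition genes of 10 kb and over, 7 carried a peak (15.9%, interval 6.64% to 30.1%), against 966 of 1986 protein-coding genes of that length (48.6%). Between 30 and 60 kb, the class with the most recognition genes, 3 of 22 did (13.6%, interval 2.91% to 34.9%), against 213 of 436 genes (48.9%). At 60 kb and over, 3 of 11 did (27.3%), against 135 of 235 genes (57.4%), which lies inside the wide interval of 6.02% to 61.0%. At 100 kb and over, none of the 4 did, which allows up to 60.2%, against 44 of 87 genes (50.6%). The 4 were dpr6, dpr8, DIP-lambda and dpr21, and DIP-lambda and dpr21 lie in a stretch of 2R where no gene carried a peak. Under 10 kb the order was the other way, with 4 of 10 recognition genes (40%, interval 12.2% to 73.8%) against 3224 of 12000 genes (26.9%). None of these 4 had a summit inside the gene. Within the under-10-kb class the recognition genes were also longer, with a median of 5968 bp against 1825 bp.

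**Figure D4:**
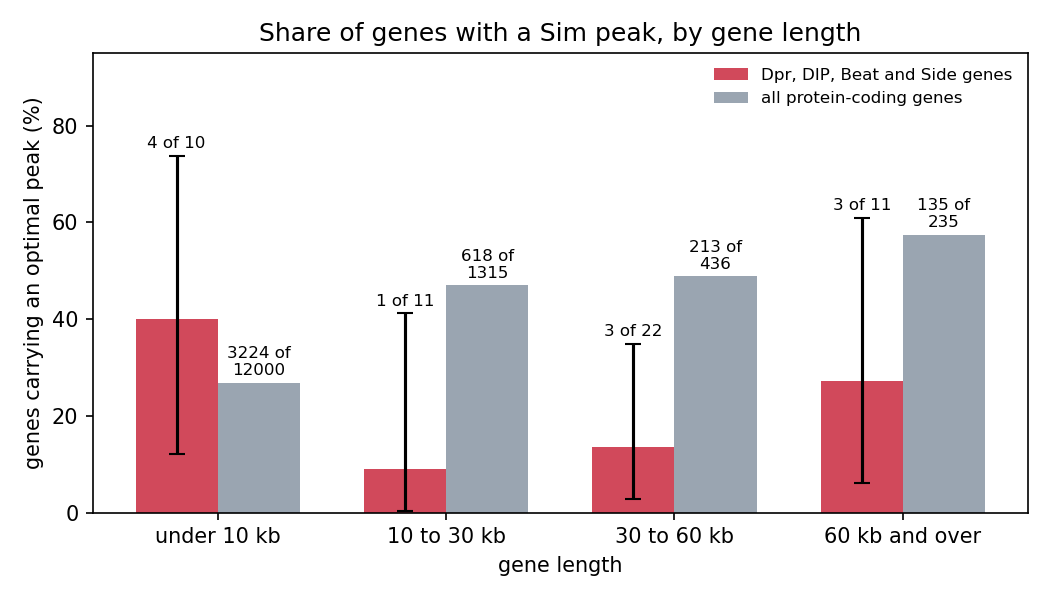
Share of genes carrying an optimal peak (%) in 4 classes of gene length, for the Dpr, DIP, Beat and Side genes (red, with exact 95% binomial intervals) and for all protein-coding genes (grey), with the numbers of genes above the bars. From 10 kb upwards the red bars are at 9.09%, 13.6% and 27.3% and the grey bars at 47.0%, 48.9% and 57.4%. At 60 kb and over the interval, 6.02% to 61.0%, includes the grey bar.

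Counted per length of DNA, the order was the same. The merged windows of the 54 genes covered 3.06 Mb and held 16 peaks, or 5.24 per Mb (exact 95% Poisson interval 2.99 to 8.50), against 22.1 per Mb over the merged windows of all protein-coding genes. In gene bodies alone there were 3.97 peaks per Mb (1.90 to 7.29) at the recognition genes, against 18.6 per Mb at all protein-coding genes. By family, gene bodies held 0 per Mb at Dpr genes, 1.45 at DIP genes, 9.52 at Beat genes and 9.60 at Side genes. The 4 family values rest on 0, 1, 5 and 4 peaks, and 3 of the 5 Beat peaks lie close together at beat-Ib. The intervals reach 4.14 per Mb for Dpr and 8.08 for DIP genes. Those of the Beat (3.09 to 22.2) and Side genes (2.61 to 24.6) include the 18.6 of all protein-coding genes. The lengths include DIP-lambda (379.1 kb), dpr21 (124.5 kb) and dpr12 (56.1 kb). These lie at the start of arm 2R, in a stretch where no gene carried a peak, which lowers the values for the DIP, Dpr and all recognition genes.

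The recognition genes also lay in emptier surroundings than most genes. The start sites of other protein-coding genes in the window numbered 1 in the median recognition gene, against 3 in the median protein-coding gene. Among genes of like length the contrast was smaller. It was 2 against 3 in the longest length bin, with 33 recognition genes, and 1 against 2 in the second longest, with 10. The window held none at 17 of the 54 genes (31.5%), against 9.46% of all protein-coding genes. The nearest optimal summit was a median of 53.4 kb from a recognition gene, against 13.5 kb from a protein-coding gene, and 28 of the 54 genes (51.9%) lay more than 50 kb from any summit, against 17.5%. These distances use the summits that define a carrier, so they partly restate the low count. Among genes without a peak alone, the medians were 66.3 kb for the recognition genes and 24.0 kb for all protein-coding genes. Among genes of 10 kb and over with no other start site in the window, 2 of 14 recognition genes carried a peak (14.3%), against 69 of 260 genes (26.5%). With at least 1 other start site the numbers were 5 of 30 recognition genes (16.7%) against 897 of 1726 genes (52.0%). Among all genes of that length the share of carriers was higher where other start sites lay near, and the part of gene spacing in the low count was not tested.

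The 11 carriers were spread over 5 of the 6 arms, with 4 of 16 genes on 2L (against 29.8% of all protein-coding genes of that arm), 1 of 7 on 2R (30.0%), 1 of 4 on 3L (32.4%), 3 of 21 on 3R (31.1%) and 2 of 5 on X (26.2%). The single gene on chromosome 4 carried none (17.5%). On 2R the first optimal summit of the whole list lay 6.12 Mb from the start of the arm. The 92 protein-coding genes before it included DIP-lambda, dpr21 and dpr12, so 3 of the 43 genes without a peak lie in a stretch where no gene had one. The nearest summit was 5410943 bp from DIP-lambda, 2925780 bp from dpr21 and 255960 bp from dpr12.

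As peaks, the 16 spanned most of the range of strength of the optimal list. Their median signal value was 69.8 (range 7.60 to 592), against 75.1 over all 2682 optimal peaks, and 6 of the 16 were above that median. In the ranked lists their medians were 28.3 against 35.3 in replicate 1 and 46.4 against 43.4 in replicate 2. A thresholded peak of replicate 1 overlapped 3 of the 16 (18.8%, interval 4.05% to 45.6%), against 38.2% of all optimal peaks, and one of replicate 2 overlapped 10 (62.5%, 35.4% to 84.8%), against 58.3%. Both lists overlapped 3 (18.8%), against 30.8%, and 6 (37.5%) were in neither list, against 34.3%. The authors' conservative list overlapped 12 (75.0%), against 79.9%. The intervals are wide at this number of peaks, and the share of each list over all optimal peaks lies inside them.

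Summits within 500 bp of a start site made up 6 of the 16 (37.5%, interval 15.2% to 64.6%), against 40.3% of all optimal peaks. Of the 54 genes, 4 had a start site of their own that close to a summit (7.41%), namely side, side-V, dpr19 and dpr14, against 9.37% of protein-coding genes. Introns held 9 of the 16 summits (56.3%), against 50% of all optimal peaks, 5′ UTRs held 3 (18.8%), against 9.21%, and a 3′ UTR held 1 (6.25%), against 1.49%. The remaining 3 lay between genes (18.8%, interval 4.05% to 45.6%), against 33.8%. The window of another protein-coding gene also covered 10 of the 16, and the nearest start site belonged to a recognition gene for 6 of the 16. At 6 of the 11 carriers, beat-Ib, DIP-alpha, beat-IIIc, side-V, side-IV and dpr20, at least 1 peak lay in no window of any other protein-coding gene.

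ACGTG, the core that Sim and Tango recognise, was found on neither strand within 50 bp of any of the 16 summits (0%, which allows up to 20.6%), against 7.27% of all optimal summits. Windows of the same length at start sites held it at 9 of 67 sites of the recognition genes (13.4%), against 11.1% of 19607 sites of all protein-coding genes. TAATTA was near 1 summit, that at DIP-iota, against 9.06% of all optimal summits. GAGAG was near 2, those at DIP-alpha and at the start site of side-V (12.5%), against 12.8%. CACGTG, which contains ACGTG, and CAGGTG and CATATG were near none, against 1.04%, 2.20% and 4.66%. A match or its absence describes these letters in these windows and not binding.

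The ranked lists, which keep weak calls, gave a value for nearly every gene. The strongest ranked peak in the window had a median signal of 20.8 over 53 recognition genes in replicate 1 (range 12.3 to 289), against 23.9 over all protein-coding genes and 28.9 over those of 10 kb and over. In replicate 2 the median over 54 genes was 21.0 (8.06 to 299), against 25.1 over all protein-coding genes and 32.1 over those of 10 kb and over. Among the genes in the longest length bin, the recognition genes had 21.0 against 29.7 in replicate 1 and 21.1 against 34.2 in replicate 2. Above the median of their own bin were 10 of the 54 genes in replicate 1 (18.5%) and 11 in replicate 2 (20.4%). Each replicate by itself thus placed most of these genes below other genes of like length. The 43 genes without an optimal peak had medians of 19.7 in replicate 1 and 19.97 in replicate 2. Low values are partly fixed in advance there, since the optimal list was made from both replicates.

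**Figure D5:**
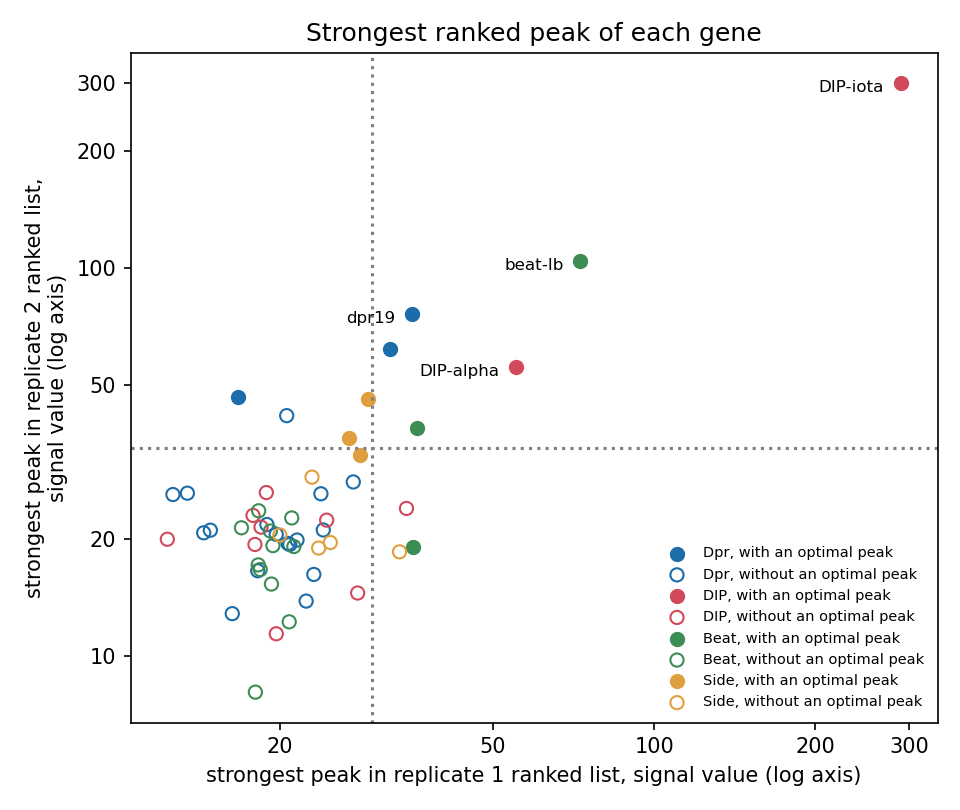
Strongest peak in the window of each recognition gene in the ranked list of replicate 1 (horizontal, log axis) and replicate 2 (vertical, log axis), by family and by whether the gene carries an optimal peak, with dotted lines at the medians of protein-coding genes in the longest length bin (29.7 and 34.2). Of the 53 genes drawn, 40 lie below both lines and 6 above both (DIP-iota, beat-Ib, DIP-alpha, dpr19, dpr14 and beat-IIIc), and dpr7 has no ranked peak in replicate 1 and is not drawn. The longest bin holds 33 of the 54 recognition genes, so for the shorter ones the lines are not medians of genes of like length.

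Known binding partners were looked at together in 7 partner sets with 22 genes. Of these, 4 carried a peak (18.2%), namely DIP-alpha, side, beat-Ib and side-IV, close to the 20.4% of the 54 genes they are part of. The share was 30.0% of all protein-coding genes and 48.6% of those of 10 kb and over, to which all partner genes but beat-Va belong. Of 15 partner pairs, 1 had a peak at both genes, 5 at one and 9 at neither, and with so few carriers these numbers say nothing particular about pairs. The pair with both was side, with its start-site peak of 68.0, and beat-Ib, with its intronic peak of 180.

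The 18 partner genes without an optimal peak had ranked peaks below the medians of genes of 10 kb and over, 28.9 in replicate 1 and 32.1 in replicate 2. That class includes genes with an optimal peak (48.6%), and the optimal list was made from both replicates. Lower values at genes picked for lacking such a peak are therefore partly fixed by that choice. Against the medians of all protein-coding genes, 23.9 and 25.1, dpr6 was higher in both replicates, DIP-delta in replicate 1 and dpr12 in replicate 2. The partners of DIP-alpha, dpr6 and dpr10, are its ligands on muscles and in the medulla. The strongest ranked peak of dpr6 had a signal value of 27.4 in replicate 1 and 28.1 in replicate 2, and that of dpr10 had 20.9 in replicate 1 and 19.4 in replicate 2. In the set of DIP-gamma with dpr11, dpr15, dpr16 and dpr17, the 5 genes spanned 14.8 to 23.1 in replicate 1 and 13.8 to 21.5 in replicate 2, and the nearest optimal summits lay 9919 to 37625 bp from the genes. DIP-delta and dpr12 pair mushroom body neurons with their partners. DIP-delta had 27.9 in replicate 1 and 14.5 in replicate 2, with a summit 68573 bp away, and dpr12 had 23.9 in replicate 1 and 26.2 in replicate 2.

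Among the Beat partners, beat-Ia, the receptor of side, had 20.8 in replicate 1 and 12.2 in replicate 2. The partners of side-IV, beat-IIa and beat-IIb, had 18.4 and 16.9 in replicate 1, and 16.7 and 21.4 in replicate 2. For side-II and beat-IV the values were 19.99 and 19.4 in replicate 1, and 20.5 and 19.2 in replicate 2. In the set of side-VI with beat-Va, beat-Vb and beat-Vc, the 4 genes spanned 17.99 to 23.6 in replicate 1 and 8.06 to 22.7 in replicate 2, and the nearest optimal summits lay 47073 to 133467 bp away. Of the partner genes, beat-Va alone is shorter than 10 kb, with 7.9 kb, so it does not belong to the class whose medians are given above.

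A list of other neuronal adhesion and recognition genes was set beside them. Of 37 such genes, chosen as a list of known surface proteins, with a median length of 44.9 kb, 21 carried a peak (56.8%, interval 39.5% to 72.9%), against 17.1 from genes of like length, and 7 carried one overlapped in both replicate lists, against 8.04. The highest signal value was 223 at babos, which had 7 peaks. At kirre, an adhesion gene of muscle founder cells, 11 peaks reached 191, and at Sema1a, an axon guidance ligand, 1 peak had 138. Peaks also lay at ed (6, up to 136), Ten-m (2, up to 124.7), Ten-a (5, up to 112), caps (4, up to 98.4) and Fas3 (1, of 100.3). The start site nearest to the strongest peak was another gene's at ed (Sr-CIII), Ten-m (IleRS), Ama (bcd), bdl (Atet) and wrapper (CG13506). At the remaining carriers of this list it was the gene's own. The 16 genes without a peak were Con, Fas1, Fas2, Lac, Ptp69D, Tollo, cDIP, fred, hbs, kek1, kek2, kek5, kek6, klg, nrm and sns. The number from genes of like length lies within the interval of these genes, and the difference between the lists was not tested.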

How the data were processed

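Peak lists of the Sim-eGFP ChIP-seq of 2 embryo samples in dm6 coordinates were used as deposited: the optimal and conservative lists of both replicates together, and for each replicate a ranked and a thresholded list. Per the labels, chromatin was sonicated to 200 to 800 bp. The sources used here name no aligner or peak caller and give no depth. In the authors' narrowPeak layout the score is a scaled IDR of up to 1000, and every optimal peak had at least 830, which is an IDR of 0.01. The signal value is the authors' peak strength, and the deposited summit offset places the summit from the peak's start.

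Genes were those of Ensembl release 115, and sequence was read from RefSeq's FASTA of that assembly. Genes were split into 20 bins of equal number by length, and the number from genes of like length is the sum of each gene's bin share. Replicate support needed 1 bp of overlap. Start sites are those of protein-coding transcripts. The members, the partner sets and the list of other surface genes were chosen with earlier results of these data known. Members are named with and without a peak, with values for those that carry one and for the partner sets. No test was made, since there is 1 group without counts. Counting and binning were tested on simulated data. Python 3.11.15 with pandas 2.3.3 and scipy 1.17.1 was used. Alternatives covered the list, score, strength, window, overlap, motif window and replicate.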

Additional observations from a re-analysis of the deposited data

How the results depend on the processing

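The count of recognition genes with a peak stayed below the number from genes of like length in all 13 alternatives (ratio 0.205 to 0.492), and the count with support in both replicates in all 11 of its own (0 to 0.324). The size of the counts moved with the list and the window. With peaks of score 1000 alone, 6 genes (against 21.8) carried 9 peaks. With peaks above the median signal, 5 genes (17.5) carried 6 peaks, of which 50% had support in both replicates, against 60.03% of all optimal peaks above that median. With summits inside the gene alone, 7 genes (18.0) carried 10 peaks. With each optimal peak given to the nearest start site at any distance, 6 genes (18.0) carried 7 peaks, and 0 genes and 0% of peaks had support in both replicates. With ranked lists cut at the length of the optimal list, 6 genes had that support (18.5).

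Without replicate 1 the list of replicate 2 gave 9 genes (against 20.1 from genes of like length) and 11 peaks, and without replicate 2 the list of replicate 1 gave 3 genes (14.6) and 3 peaks. Over these lists the share of summits within 500 bp of a start site was 0% to 36.4%, and that with ACGTG was 0% in both. Within 100 bp of the summit ACGTG was at 12.5% of the peaks, against 14.8% of all optimal peaks. Support in both replicates has no value when one is left out. No paired analysis was possible because there is 1 group.

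Chosen after seeing the data, 100 length bins gave 26.1 genes of like length, bins that also matched the number of other start sites gave 22.4, and leaving out arm 2R gave 10 genes against 22.2. Depth limits what a missing peak shows: with no counts, an unbound site and one below the threshold cannot be told apart.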

Other observations

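One peak at a recognition gene stood in a replicate list and in no optimal peak. At dpr2, a Dpr gene of 47.1 kb, the thresholded list of replicate 2 held a peak of signal value 41.6, rank 1383 of 1676, at chr2L:10967327-10967606. The strongest ranked peak of replicate 1 in the window of dpr2 had 20.6, and the nearest optimal summit lay 23500 bp from the gene. The replicate 2 list named 9 recognition genes, against 20.1 from genes of like length and 21.8% of all protein-coding genes. The replicate 1 list named 3, against 14.6 from genes of like length and 15.0% of all protein-coding genes. All 3 were among the 9, and how often this holds over all genes was not counted.

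Among the genes without an optimal peak, DIP-epsilon and side-VII had the highest ranked signals of replicate 1, with 34.5 and 33.5, against 24.0 and 18.5 in replicate 2. In replicate 2 the highest such genes were dpr2 with 41.6 and side-III with 28.9, against 20.6 and 23.0 in replicate 1.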
